A study of Mus musculus with 6 samples.

Results

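The glucocorticoid receptor gene Nr3c1 and 6 genes that respond to the receptor (Fkbp5, Tsc22d3, Sgk1, Klf9, Ddit4 and Zbtb16) were examined in splenocytes of Top3b-KO and wild-type (WT) mice. The 7 genes were chosen by name, as the receptor and known targets, and all 7 were found among the 56413 gene symbols of the count table. All 7 also passed the filter on low counts, which left 18716 genes. The groups were 3 libraries of the genotype Top3b-KO and 3 of the genotype Wild-type, made from fresh total splenocytes by ribosomal-RNA-depleted total RNA sequencing. No hormone, drug or other treatment is named in the labels for either group, and neither age, sex nor strain is given there. The labels do not say what deletion the Top3b-KO mice carry, whether each library came from its own animal, or at what hour the spleens were taken. Top3b encodes topoisomerase III-beta, an enzyme that acts on DNA and RNA, and the study asked how it guards against tumours and immune dysregulation.

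Glucocorticoids such as corticosterone enter the cell and bind the receptor, which waits in the cytoplasm in a complex with HSP90 and its partners. The loaded receptor moves to the nucleus, where pairs of receptors bind palindromic DNA elements and raise transcription of genes such as the 6 described here, and where it also restrains NF-kB and AP-1 at inflammatory genes. Spleen lymphocytes and myeloid cells express the receptor, and blood hormone levels vary with the time of day and with stress, so transcripts of these targets can vary with hormone exposure.

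Total counts were between 9941019 and 25473405 in the Top3b-KO libraries and between 15262063 and 15860288 in the WT libraries, and Top3b-KO library 3 was the shallowest. Top3b was at 51.5, 48.2 and 49.7 CPM (depth-scaled counts) in the Top3b-KO libraries, against 95.1, 86.9 and 91.0 CPM in the WT libraries. It was thus reduced but present, and a count per gene does not show which exons the remaining reads came from. Splenic B cell and T cell markers were plentiful in all 6 libraries. The summed level of 8 B cell genes was between 4301 and 4532 CPM in Top3b-KO and between 4177 and 4814 CPM in WT, and that of 8 T cell genes between 1084 and 1137 CPM in Top3b-KO and between 975.4 and 1166 CPM in WT. Markers of pancreas, whose 5 genes summed to between 2.53 and 4.10 CPM in Top3b-KO and between 2.83 and 4.71 CPM in WT, and of fat, at 0.436 CPM or less over 4 genes in every library, were low. Of the marker lists the neutrophil genes varied most, with a summed level of 446, 621 and 1483 CPM in the Top3b-KO libraries and 615, 1093 and 748 CPM in the WT libraries. Levels in such mixed cells cannot tell fewer cells of a type from less RNA per cell.

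No difference between the genotypes was detected for any of the 7 genes. Of the 7, 0 had a Benjamini-Hochberg adjusted p under 0.05, over all genes, in the quasi-likelihood test of edgeR, where 0.0107% of tested genes did (2 of 18716). At an unadjusted p under 0.05 the count was again 0 of 7, beside 5.52% of all tested genes, and DESeq2 and limma-voom gave 0 on both counts as well. Over all tested genes the share past the adjusted threshold was 0.0321% by DESeq2 and 0.00534% by limma-voom, and the share at an unadjusted p under 0.05 was 3.33% by DESeq2 and 5.67% by limma-voom. For 0 of 7 did the Top3b-KO libraries lie wholly above or below the WT libraries, beside 11.0% of all tested genes. The log2 fold change was above 0 for 6 of 7, beside 49.1% of all tested genes, but the values ran only from -0.077 to 0.066 with a median of 0.019, beside a median of -0.0029 over all tested genes. Leaving out 1 library at a time moved the median of the 7 to between -0.020 and 0.068, so its sign rested on single libraries.

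**Figure D1:**
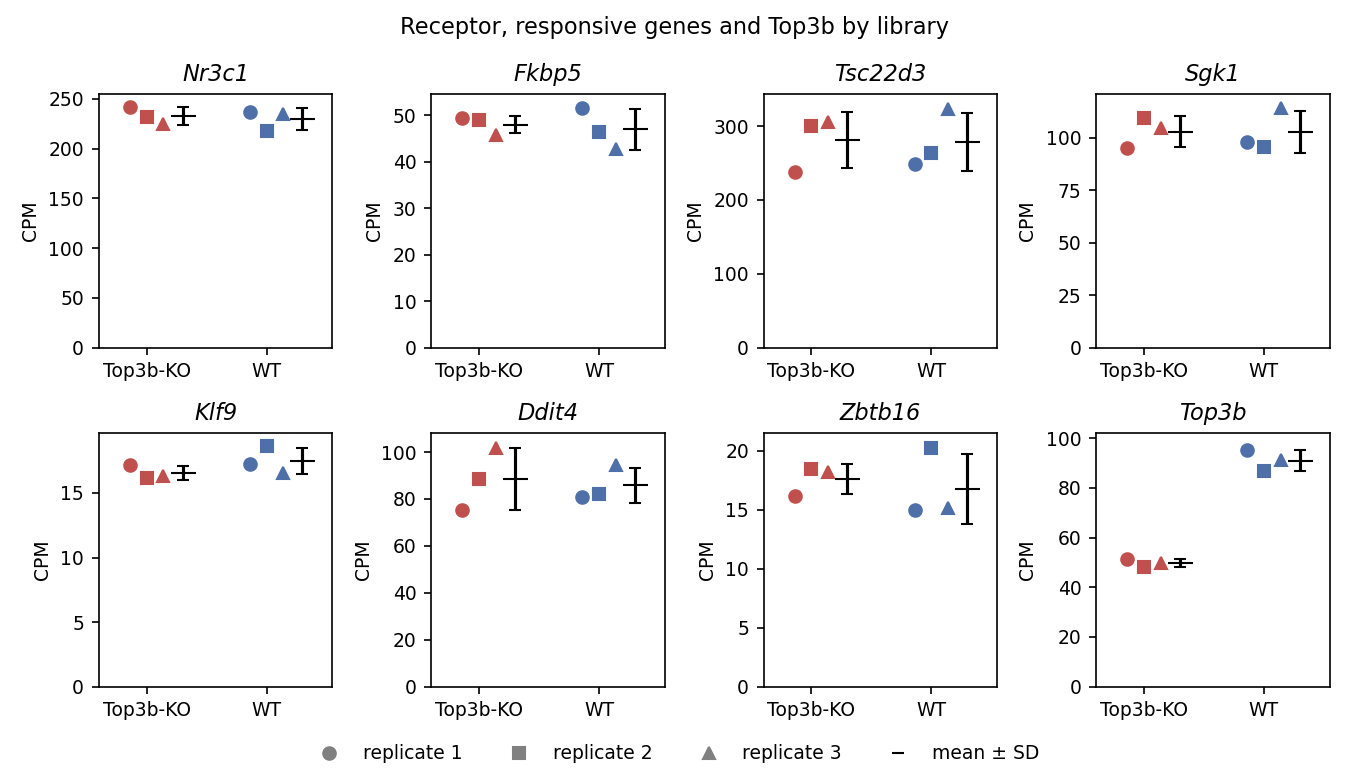
Depth-scaled levels in CPM (vertical axis, from 0) of the receptor gene, 6 responsive genes and Top3b in the 3 Top3b-KO (red) and 3 WT (blue) libraries; symbols mark the replicate number, and black bars the mean ± SD. The genotypes overlap for the receptor and its 6 targets and separate for Top3b, at 48.2 to 51.5 CPM in Top3b-KO against 86.9 to 95.1 CPM in WT.

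The receptor gene itself was abundant and nearly level. Nr3c1, on chromosome 18, had 242, 231 and 224 CPM in the Top3b-KO libraries, against 237, 217 and 235 CPM in the WT libraries. The highest and lowest of the 6 values were a factor of 1.11 apart, and the genotypes overlapped. Nr3c1 averaged 233 ± 8.86 CPM in Top3b-KO and 230 ± 10.7 CPM in WT (SD, n = 3 each). The log2 fold change was 0.019 (SE 0.065), with 0.984 as edgeR's adjusted p, and its 95% interval of -0.12 to 0.15 covers ratios from 0.922 to 1.11. Its sign changed without Top3b-KO library 1 (-0.0036) or WT library 2 (-0.020). The SD of its log2 CPM within genotypes was 0.062, lower than in all but 18.2% of the 9669 genes at 10 CPM or more, whose median SD was 0.10. Those genes were not matched to Nr3c1 for level, and counting error alone gives an SD of 0.024 at its counts.

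Fkbp5 encodes FKBP51, a co-chaperone in the receptor complex that lowers the receptor's affinity for hormone, so that its induction closes a feedback loop. Fkbp5, on chromosome 17, had 49.4, 48.9 and 45.8 CPM in the Top3b-KO libraries, against 51.7, 46.5 and 42.8 CPM in the WT libraries. The WT libraries spread more widely and enclosed all 3 Top3b-KO values. The means were 48.0 ± 1.92 CPM in Top3b-KO and 47.0 ± 4.43 CPM in WT (SD, n = 3 each), and the log2 fold change was 0.035 (SE 0.083, 95% interval -0.14 to 0.21), with 0.977 as edgeR's adjusted p. Without WT library 3, which had the lowest value, it was -0.027.

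Tsc22d3 encodes GILZ, the glucocorticoid-induced leucine zipper protein, which binds and restrains NF-kB and AP-1. Tsc22d3, on chromosome X, had 238, 300 and 305 CPM in the Top3b-KO libraries, against 249, 264 and 323 CPM in the WT libraries. Both genotypes therefore held libraries with low and with high Tsc22d3, and they overlapped. The means were 281 ± 37.5 CPM in Top3b-KO and 279 ± 39.5 CPM in WT (SD, n = 3 each). The log2 fold change of 0.011 (SE 0.114, 95% interval -0.24 to 0.26) had 0.997 as edgeR's adjusted p. It was below 0 when any of 4 libraries was left out, at -0.037 without Top3b-KO library 2, -0.050 without Top3b-KO library 3, -0.068 without WT library 1 and -0.027 without WT library 2. The SD of its log2 CPM within genotypes, 0.200, was larger than in 92.8% of genes at 10 CPM or more. At the counts of Tsc22d3 itself, counting error alone gives an SD of 0.022.

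Sgk1 encodes a serine/threonine kinase related to AKT that regulates ion transport and survival, and it is a classical direct target of the receptor. Sgk1, on chromosome 10, had 94.98, 109 and 104.5 CPM in the Top3b-KO libraries, against 97.8, 95.7 and 114 CPM in the WT libraries. The lowest and the highest value belonged to different genotypes, Top3b-KO library 1 and WT library 3. The means were 103 ± 7.26 CPM in Top3b-KO and 103 ± 10.1 CPM in WT (SD, n = 3 each), with a change of 0.0039 on the log2 scale (SE 0.078, 95% interval -0.16 to 0.17) and 0.999 as edgeR's adjusted p. Leaving out Top3b-KO library 2 (-0.039), Top3b-KO library 3 (-0.0059), WT library 1 (-0.032) or WT library 2 (-0.044) turned its sign.

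Promoter sequence is shown for Sgk1 and Tsc22d3. Of the 7 genes, only these had a promoter window with the searched letters of the receptor's binding element. RefSeq promoter windows on GRCm38.p6, from 250 bases before to 50 bases after each annotated start, covered 5 of the 7 genes (Fkbp5, Tsc22d3, Sgk1, Klf9 and Ddit4) with 12 windows, of which Sgk1 had 6 and Tsc22d3 had 3. Both strands were searched for the palindrome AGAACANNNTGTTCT and for its hexamer AGAACA, which is also contained in the palindrome. The palindrome occurred in 1 of the 12 windows, that of Sgk1 at chr10:21993640-21993939 (plus strand), 189 to 175 bases before the start, and in 3 of all 32851 windows (0.00913%). The hexamer occurred in 4 of the 12 windows, 3 of Sgk1 and 1 of Tsc22d3, and in 19.0% of all windows. The Tsc22d3 window was chrX:140600473-140600772 (minus strand), with the hexamer on the opposite strand of the gene, 185 to 180 bases before the start. The other Tsc22d3 windows, chrX:140542619-140542918 and chrX:140548522-140548821, lie downstream of it and held no match. Which of the 3 starts gives the GILZ transcript was not examined. Capitals mark each match of the palindrome or the hexamer on either strand.
Sgk1: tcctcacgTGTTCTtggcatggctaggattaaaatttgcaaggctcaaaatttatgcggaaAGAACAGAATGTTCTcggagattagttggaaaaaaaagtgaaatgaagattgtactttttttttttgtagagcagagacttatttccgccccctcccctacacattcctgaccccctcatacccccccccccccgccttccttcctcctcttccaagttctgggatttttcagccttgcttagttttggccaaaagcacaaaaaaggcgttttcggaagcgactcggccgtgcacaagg
Tsc22d3: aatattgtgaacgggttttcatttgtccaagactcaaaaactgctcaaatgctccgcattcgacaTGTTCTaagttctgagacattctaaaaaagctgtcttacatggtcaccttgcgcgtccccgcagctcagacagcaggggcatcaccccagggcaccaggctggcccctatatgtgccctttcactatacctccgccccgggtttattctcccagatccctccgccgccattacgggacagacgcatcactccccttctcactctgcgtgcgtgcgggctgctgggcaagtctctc
In the Sgk1 sequence the longer capital run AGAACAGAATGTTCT is the full palindrome. A match is a description of letters only, and the single windows of Ddit4, Fkbp5 and Klf9 held none. Counts per gene do not say which start site was used.

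Ddit4 encodes REDD1, which restrains the growth kinase complex mTORC1 and is also induced by hypoxia and by ATF4. Ddit4, on chromosome 10, had 75.2, 88.7 and 102 CPM in the Top3b-KO libraries, against 81.0, 82.2 and 94.4 CPM in the WT libraries. The Top3b-KO values enclosed all 3 WT values. The means were 88.6 ± 13.3 CPM in Top3b-KO and 85.8 ± 7.40 CPM in WT (SD, n = 3 each), and the log2 fold change was 0.037 (SE 0.096, 95% interval -0.17 to 0.24), with 0.980 as edgeR's adjusted p. It was -0.066 without Top3b-KO library 3 and -0.0075 without WT library 1.

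Tsc22d3, Sgk1 and Ddit4, grouped after their values were seen, varied together from library to library. Each was below its own mean in Top3b-KO library 1, WT library 1 and WT library 2, and above it in Top3b-KO libraries 2 and 3 and in WT library 3. On the log2 scale Tsc22d3 lay at -0.23, 0.11 and 0.13 from its mean in the Top3b-KO libraries and at -0.16, -0.075 and 0.22 in the WT libraries. Ddit4 lay at -0.21, 0.032 and 0.23 in the Top3b-KO libraries and at -0.10, -0.078 and 0.12 in the WT libraries. Sgk1 moved less, at -0.11, 0.092 and 0.028 in the Top3b-KO libraries and at -0.067, -0.099 and 0.16 in the WT libraries. Likeness was measured as the root mean square difference between such deviations over the 6 libraries, among 9668 other genes at 10 CPM or more. By this measure Ddit4 ranked 26th (0.070) and Sgk1 58th (0.080) in likeness to Tsc22d3. Seen from Ddit4, Tsc22d3 ranked 38th and Sgk1 261st, while from Sgk1, which is flatter and so resembles more genes, Tsc22d3 ranked 1015th and Ddit4 2097th. The 6 libraries share cells of the same tissue and were compared on one scale, and the ranks describe these libraries only.

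**Figure D2:**
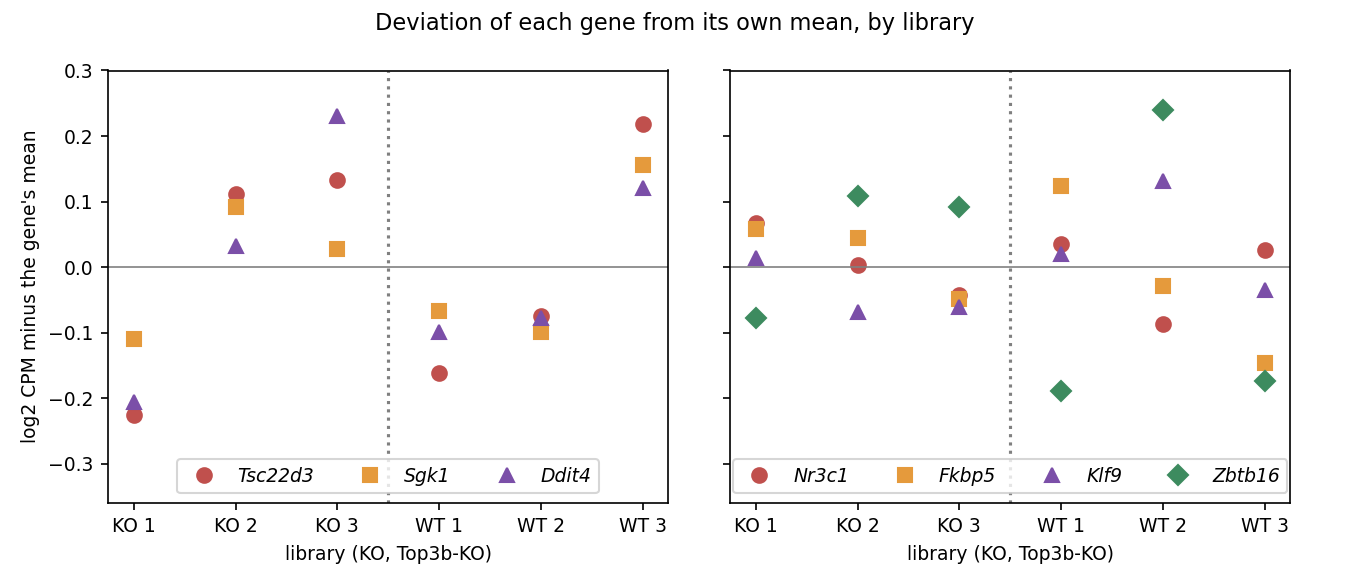
Deviation of each gene's log2 CPM from its own mean over the 6 libraries (vertical axis), by library (horizontal axis), for Tsc22d3, Sgk1 and Ddit4 (left) and for Nr3c1, Fkbp5, Klf9 and Zbtb16 (right). The 3 genes on the left were grouped after their values were seen. All 3 are below 0 in Top3b-KO library 1 and WT libraries 1 and 2, and above 0 in the other 3 libraries. Those on the right share no such order.

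Other genes of the pathway were set beside the 3 by the same measure. Of 20 further glucocorticoid-induced genes at 10 CPM or more, 1 was among the 10% of genes most like Tsc22d3 and most like Ddit4. That gene was Cxcr4, the chemokine receptor that holds lymphocytes and myeloid cells in bone marrow, named here after its values were seen. It had 153, 200 and 218 CPM in the Top3b-KO libraries, against 158, 182 and 226 CPM in the WT libraries. Another 3 of the 20, Sesn1, Txnip and Rgs2, were among the 10% most like Sgk1. Of 5 genes of steroid metabolism and related receptors at that level, 1 was among the nearest 10% of Tsc22d3, Sgk1 and Ddit4 alike. It was Abcb1b, which encodes a drug efflux pump that also exports glucocorticoids, likewise named after its values were seen. Abcb1b had 15.1, 17.2 and 16.3 CPM in the Top3b-KO libraries, against 15.6, 14.2 and 16.4 CPM in the WT libraries, below and above its mean in the same libraries as the 3 targets. Of the 14 receptor chaperones, 1 (Ppid) was among the nearest 10% of Sgk1 and 0 among those of Tsc22d3 or Ddit4, and of the 14 coregulators, 5 repressed genes, 9 mTORC1 regulators and 11 immediate early and heat shock genes, 0 were near any of the 3. The genes most like Tsc22d3 in the whole table were Tspan2, which encodes a tetraspanin (root mean square difference 0.036), and Xkrx (0.039), and those most like Ddit4 were 6330409D20Rik (0.028) and Tmem156 (0.029). For Sgk1 they were 1500011B03Rik (0.021) and Nip7 (0.023), for Nr3c1 Edem1 and Atad2 (0.013 and 0.014), for Fkbp5 Ddx27 and Spon1 (0.014 and 0.015), for Klf9 Zmiz1 and Acp5 (0.014 and 0.015), and for Zbtb16 Cenpb and Cog7 (0.046 and 0.048). Cell type markers also differed between these libraries. The summed level of the 8 B cell genes was 4301, 4353 and 4532 CPM in the Top3b-KO libraries and 4177, 4814 and 4756 CPM in the WT libraries, and that of the 8 T cell genes was 1137, 1122 and 1084 CPM in the Top3b-KO libraries and 1166, 1046 and 975.4 CPM in the WT libraries. Library 1 of each genotype, where the 3 target genes were below their means, had the lowest B cell sum, the highest T cell sum and the lowest neutrophil sum of its genotype. In WT library 2, where the 3 were also below their means, the B cell and neutrophil sums were instead the highest of the WT libraries. Of the 8 B cell markers, 1 was among the 10% of genes most like Tsc22d3 (Ms4a1) and 1 among those most like Ddit4 (Fcer2a), and of the 8 T cell markers 0 were near any of the 3. For Fkbp5, 4 of the 8 T cell markers (Cd3d, Cd4, Cd8a and Cd5) were among the nearest 10%, and 0 of the B cell markers. The part of cell type content in these values was not tested.

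The remaining targets are transcription factors at lower levels. Klf9, a Krüppel-like factor on chromosome 19 that responds to glucocorticoids and thyroid hormone, had 17.2, 16.2 and 16.3 CPM in the Top3b-KO libraries, against 17.2, 18.6 and 16.6 CPM in the WT libraries. It was the only one of the 7 with a log2 fold change below 0, and the genotypes overlapped. The means were 16.5 ± 0.532 CPM in Top3b-KO and 17.5 ± 1.04 CPM in WT (SD, n = 3 each), a change of -0.077 on the log2 scale (SE 0.102, 95% interval -0.29 to 0.14) with 0.964 as edgeR's adjusted p. It was below 0 in all 14 alternative analyses, between -0.11 and -0.030. Its SD within genotypes on the log2 scale, 0.068, was below the 0.088 that counting error alone gives at its 161 to 419 counts per library.

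Zbtb16 encodes PLZF, the zinc finger factor that directs natural killer T cells and other innate-like lymphocytes and that glucocorticoids induce in several tissues. Zbtb16, on chromosome 9, had 16.2, 18.4 and 18.2 CPM in the Top3b-KO libraries, against 14.98, 20.2 and 15.1 CPM in the WT libraries. WT library 2 was the highest of the 6 and the other WT libraries the lowest. The means were 17.6 ± 1.24 CPM in Top3b-KO and 16.8 ± 2.96 CPM in WT (SD, n = 3 each), and the log2 fold change was 0.066 (SE 0.122, 95% interval -0.19 to 0.32), with 0.972 as edgeR's adjusted p. It was -0.011 without WT library 1 and -0.0039 without WT library 3. Of the 9 markers of natural killer and innate-like T cells, 1 had a log2 fold change above 0 and 8 below 0, beside 49.1% of all tested genes above 0. Their median was -0.14, and 0 passed the adjusted threshold by edgeR's test. The 9 summed to 540, 460 and 464 CPM in the Top3b-KO libraries and 574, 471 and 525 CPM in the WT libraries (exact permutation p = 0.5, two-sided, where 0.1 is the smallest possible). None of the 9 was at 0 in all libraries. The highest Zbtb16 value, in WT library 2, thus stood beside the lowest such sum of the WT libraries, and 0 of the 9 were among the 10% of genes most like Zbtb16. Of the 8 B cell markers, 5 were among those 10% (Cd79a, Cd79b, Pax5, Cd22 and Fcer2a). So were 1 of 8 T cell markers (Cd3g), 3 of 14 coregulators, 2 of 14 chaperones and 2 of 20 further induced genes. Pecam1, the 1 stroma and endothelium marker at 10 CPM or more, was among them too. WT library 2 also had the highest B cell sum of the 6 libraries, 4814 CPM. The part of B cell content in the Zbtb16 values was not tested.

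**Figure D3:**
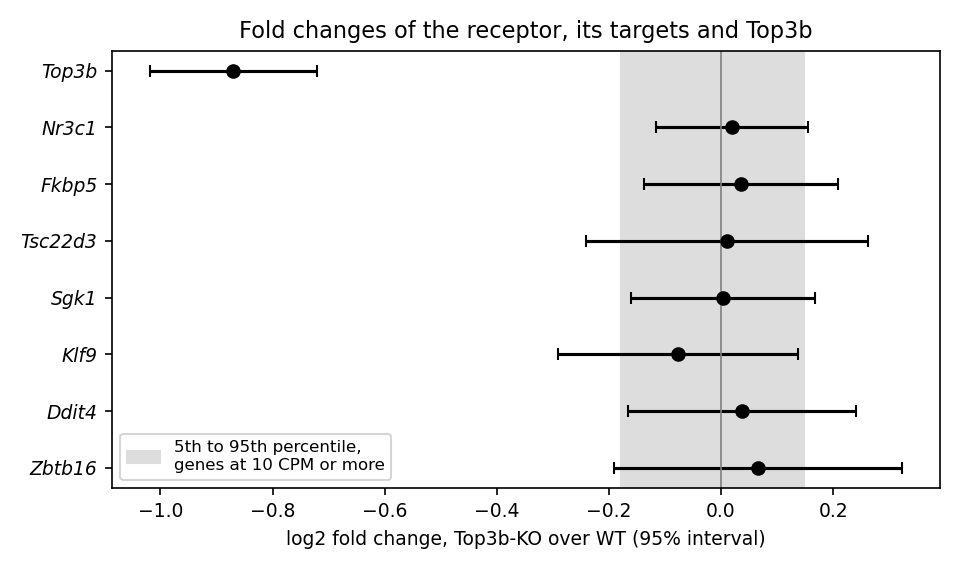
Log2 fold change of Top3b-KO over WT (horizontal axis) with 95% intervals for Top3b, the receptor gene Nr3c1 and its 6 targets; the grey band spans the 5th to the 95th percentile, -0.18 to 0.15, of genes at 10 CPM or more. All 7 intervals of the receptor and its targets include 0, and that of Top3b runs from -1.02 to -0.72.

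The intervals limit how large a difference could have been missed. The widest was that of Zbtb16, whose upper end corresponds to a ratio of 1.25, and the lowest lower end was that of Klf9, at a ratio of 0.817. A p above the threshold does not show equal expression, but ratios outside the range from 0.817 to 1.25 lay outside every one of the 7 intervals. The intervals cover the spread between these libraries, which the labels call replicates without saying whether they are separate animals.

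Levels were set side by side per kilobase of the longest GENCODE M21 transcript. The order, from high to low over all 6 libraries, was Tsc22d3 (97.3 CPM per kilobase), Ddit4 (49.7), Nr3c1 (35.9), Sgk1 (33.2), Fkbp5 (12.3), Klf9 (3.79) and Zbtb16 (3.36). Tsc22d3 ranged from 82.7 to 112 and Ddit4 from 42.9 to 58.0 CPM per kilobase, so these neighbours did not overlap, and neither did Ddit4 and Nr3c1. Nr3c1, at 33.8 to 37.6, and Sgk1, at 30.7 to 36.9, did overlap, as did Klf9, at 3.61 to 4.15, and Zbtb16, at 2.93 to 3.95. Fkbp5, at 11.1 to 13.4, overlapped neither neighbour. Dividing by the total length of all annotated exons gave the same order. No exon of the 7 genes is shared with another gene in that annotation.

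No difference was detected for the partners of the receptor or for 6 other related lists. Of their 95 tested genes, 0 passed the adjusted threshold by edgeR, DESeq2 or limma-voom. At an unadjusted p under 0.05 there were 10 by edgeR (10.5%, beside 5.52% of all tested genes), 7 by DESeq2 (7.37%, beside 3.33%) and 10 by limma-voom (10.5%, beside 5.67%). The lists were chosen with earlier results known, and these shares are a description only. Of 14 chaperone and co-chaperone genes, 0 passed the adjusted threshold by edgeR's test, and 6 had a log2 fold change above 0 and 8 below 0, with a median of -0.0091. Hsp90ab1, the constitutive HSP90 that holds the receptor ready for hormone, was at 1694 ± 41.3 CPM in Top3b-KO and 1588 ± 120 CPM in WT (SD, n = 3 each), a log2 fold change of 0.094. Hspa8, the constitutive HSP70 protein that loads it, was at 1231 ± 50.3 CPM in Top3b-KO and 1250 ± 228 CPM in WT, a log2 fold change of -0.022. The smallest unadjusted p-values in the list were those of Hsp90aa1, the inducible HSP90 (log2 fold change 0.15, edgeR adjusted p 0.915), and Bag1, a co-chaperone of HSP70 (-0.13, adjusted p 0.915).

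Coregulators, which link the bound receptor to chromatin and polymerase, numbered 14 and 0 passed. Of the 14, 11 had a log2 fold change above 0, beside 49.1% of all tested genes, and the median was 0.048. Med1, the Mediator subunit that nuclear receptors contact, had 223, 218 and 223 CPM in the Top3b-KO libraries, against 197, 197 and 205 CPM in the WT libraries. Its genotypes did not overlap, with a change of 0.15 on the log2 scale (SE 0.061), an unadjusted p of 0.025 and 0.856 as edgeR's adjusted p. The corepressor Ncor1 was at 640 ± 11.9 CPM in Top3b-KO and 595 ± 30.7 CPM in WT (SD, n = 3 each), and the acetyltransferase gene Ep300 at 450 ± 11.3 CPM in Top3b-KO and 435 ± 30.4 CPM in WT. Crtc2, a CREB coactivator, had a log2 fold change of -0.15 and 0.903 as edgeR's adjusted p. In all, 4 of 14 coregulators had genotypes that did not overlap, 3 higher and 1 lower, beside 11.0% of all tested genes. Without WT library 3 their median was -0.00069.

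Genes of steroid metabolism and related receptors had 7 of 8 members tested, of which 0 passed, with a median log2 fold change of 0.093. Hsd11b1, whose enzyme regenerates active hormone inside cells, was at 52.9 ± 2.21 CPM in Top3b-KO and 48.2 ± 5.49 CPM in WT (SD, n = 3 each). H6pd, which supplies that enzyme with NADPH, was at 42.5 ± 5.66 CPM in Top3b-KO and 42.7 ± 2.64 CPM in WT. The mineralocorticoid receptor gene Nr3c2, whose product also binds corticosterone, had a change of 0.26 on the log2 scale (SE 0.156) and 0.915 as edgeR's adjusted p.

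A wider list of genes that glucocorticoids induce in blood or other cells gave no common direction. Of 28 listed, 25 were tested and 0 passed by edgeR's test, with 10 above 0, 15 below 0 and a median log2 fold change of -0.034. At an unadjusted p under 0.05 there were 2 higher and 1 lower, 12% of the 25 beside 5.52% of all tested genes. Il7r, the interleukin 7 receptor gene of T cells, had 186, 194 and 201 CPM in the Top3b-KO libraries, against 173, 165 and 168 CPM in the WT libraries. It had a change of 0.20 on the log2 scale (SE 0.063) and 0.679 as edgeR's adjusted p. Cebpb, a myeloid transcription factor gene, had 16.8, 14.8 and 13.9 CPM in the Top3b-KO libraries, against 16.9, 17.9 and 20.4 CPM in the WT libraries, with a change of -0.27 on the log2 scale (SE 0.112) and 0.861 as edgeR's adjusted p. The abundant Txnip, an inhibitor of thioredoxin, and Zfp36, which destabilises cytokine messages, had log2 fold changes of -0.065 and -0.040.

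Genes that the receptor represses, mostly cytokines and inflammatory enzymes, had 11 of 15 members tested and 0 passed by edgeR's test, with 5 above 0, 6 below 0 and a median of -0.063. Their range was the widest of these lists. Ptgs2, the inducible cyclooxygenase, had 14.01, 22.3 and 20.6 CPM in the Top3b-KO libraries, against 11.5, 13.3 and 12.1 CPM in the WT libraries, with a change of 0.62 on the log2 scale (SE 0.151) and 0.528 as edgeR's adjusted p. Its adjusted p was 0.0072 without Top3b-KO library 1, the lowest of the 3, and lay between 4.07e-04 and 1.00 over all 14 alternatives. Il6 was at 0.772 ± 0.121 CPM in Top3b-KO and 1.31 ± 0.335 CPM in WT (SD, n = 3 each), a change of -0.73 on the log2 scale (SE 0.324, edgeR adjusted p 0.879). Il6 had only 7 to 23 counts per library in Top3b-KO and 15 to 25 in WT. Counting error at its lowest count was 37.8%. The 2 most abundant members, Icam1 and Il1b, had log2 fold changes of -0.063 and 0.11, and Il1b ranged from 62.7 to 106 CPM within the Top3b-KO libraries alone.

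Regulators of mTORC1, the complex that REDD1 restrains, had 11 of 12 members tested and 0 passed, with a median log2 fold change of -0.027. Sesn3, an amino acid and stress sensor, and Mtor were the most abundant, with log2 fold changes of 0.051 and -0.027. Akt1s1, an mTORC1 inhibitor, had 22.6, 19.7 and 21.9 CPM in the Top3b-KO libraries, against 25.6, 28.6 and 22.9 CPM in the WT libraries (log2 fold change -0.27, edgeR adjusted p 0.838). Deptor, a further inhibitor, had a log2 fold change of -0.21 and an adjusted p of 0.915. Immediate early and heat shock genes, which respond to tissue handling, were all 13 tested with 0 passing and a median of -0.021. Hspa1a and Hspa1b, named here after their values were seen, varied widely within both genotypes. Hspa1a ran from 9.05 to 34.6 CPM in Top3b-KO and from 7.23 to 29.1 CPM in WT. Hspa1b ran from 20.8 to 87.5 CPM in Top3b-KO and from 21.3 to 79.8 CPM in WT. Fosb was at 377 ± 29.7 CPM in Top3b-KO and 383 ± 51.1 CPM in WT (SD, n = 3 each). Jund had 82.7, 68.7 and 77.4 CPM in the Top3b-KO libraries, against 86.4, 97.9 and 94.6 CPM in the WT libraries, a change of -0.29 on the log2 scale (SE 0.079) with 0.552 as edgeR's adjusted p. Junb had a log2 fold change of -0.20 with an adjusted p of 0.840, which was 0.036 without WT library 3 and between 0.036 and 1.00 over all 14 alternatives.

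**Figure D4:**
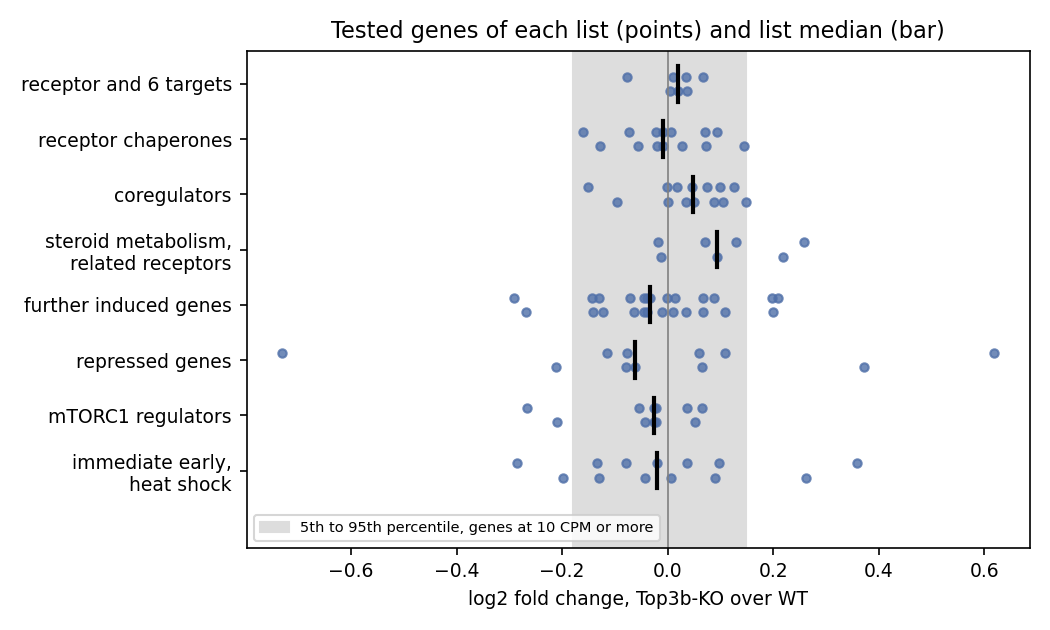
Log2 fold change of Top3b-KO over WT (horizontal axis) for every tested gene (points) of the receptor and its 6 targets and of 7 related lists, with list medians as black bars; the grey band spans the 5th to the 95th percentile, -0.18 to 0.15, of genes at 10 CPM or more. All 7 points of the first line lie inside the band, and the points farthest from 0 are the repressed genes Il6 (-0.73) and Ptgs2 (0.62). Il6 had only 7 to 25 counts per library.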

How the data were processed

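Fresh splenocytes were profiled by ribosomal-RNA-depleted total RNA sequencing. Per the submitters' processing notes, reads were aligned with STAR to mm39. For the counting tool, strand setting and annotation release, the sources used here give nothing. The authors deposited expected counts per gene symbol. Here these were rounded to whole numbers (72 of 56413 symbols had values that were not whole within 1e-06), filtered with edgeR's filterByExpr and scaled by TMM. CPM values use those factors, and log2 CPM a prior count of 1. Genotypes were compared two-sided by the quasi-likelihood test of edgeR, with genotype alone in the model, robust dispersions, and p-values adjusted by Benjamini-Hochberg over 18716 genes (threshold 0.05). SE is the absolute log2 fold change divided by the square root of F, and 95% intervals use the test's t quantile. The script was tested on simulated data. Versions were edgeR 4.0.16, DESeq2 1.42.0 and limma 3.58.1 under R 4.3.3.

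The 7 genes and the other lists were chosen with earlier results of these data known. Some genes are marked as named after their values were seen. Otherwise the genes named in each other list were those past the threshold, the 2 with the highest mean and the 2 with the smallest p. For 1 gene that this rule names, the result is not reported here. For genes of likeness, the nearest 2 at 10 CPM or more were taken. Alternatives changed scaling, filter, test, robust setting, replicate block and libraries. Libraries of 1 genotype differed beyond counting error (chi-square per degree of freedom 5.58 to 16.6). A floor of 3 counts is 0.119 to 0.303 CPM in Top3b-KO and 0.188 to 0.197 CPM in WT, for counting error only.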

Additional observations from a re-analysis of the deposited data

How the results depend on the processing

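Under 14 alternatives, 8 of them other settings and 6 leaving out 1 library, 0 of the 7 genes passed the threshold and 0 had an unadjusted p under 0.05. Top3b remained lower and past the threshold in all 14, with log2 fold changes between -0.90 and -0.84. Beside 2 genes past the threshold in all, the number was 44 without any filter, 6 by DESeq2, 1 with limma-voom, 1 with robust=FALSE and 1 to 32 when 1 library was left out, the highest without WT replicate 3. With the replicate block 41 passed, and 0 of the 7. The deviations of libraries that share a number had correlations of 0.363, -0.0996 and -0.0236, so the numbers were not taken to pair the libraries. Top3b-KO library 3 with WT library 2 had 0.273, and Top3b-KO library 2 with WT library 3 had 0.260. The remaining combinations of different numbers were below 0. Each deviation was taken from the mean of its own genotype, so values below 0 beside values above 0 follow from the calculation. Whether the libraries were matched in another order was not tested. The 8 other settings turned no sign among the 7 genes. Leaving out 1 library gave log2 fold changes of -0.020 to 0.044 for Nr3c1, -0.027 to 0.11 for Fkbp5, -0.068 to 0.13 for Tsc22d3, -0.044 to 0.087 for Sgk1, -0.066 to 0.15 for Ddit4 and -0.011 to 0.22 for Zbtb16. The same ranges were -0.12 to 0.13 for Hspa8, -0.11 to 0.081 for H6pd, -0.053 to 0.32 for Il1b, -0.12 to 0.033 for Icam1, -0.077 to 0.038 for Mtor, -0.12 to 0.072 for Fosb and -0.011 to 0.075 for Ep300. Ptgs2 passed in 3 alternatives, with no filter (adjusted p 4.07e-04), the replicate block (0.0068) and without Top3b-KO replicate 1. The median of the repressed genes was 0.059 under the stricter filter, where Il6 was no longer tested. In that setting Ptgs2, Icam1 and Il1b had log2 fold changes of 0.62, -0.063 and 0.11. When 1 library was left out, the median of the repressed genes was between -0.084 and 0.021. That of further induced genes was 0.012 without Top3b-KO replicate 1. Medians also crossed 0 when 1 library was left out for the chaperones (-0.068 to 0.060), the mTORC1 regulators (-0.053 to 0.017) and the immediate early and heat shock genes (-0.090 to 0.0034). What causes these shifts was not tested. Depth is most limiting for Klf9 and Zbtb16 in Top3b-KO library 3, where 161 and 180 counts carry counting errors of 7.88% and 7.45%.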
